A study of Homo sapiens with 18 samples.

Results

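The genes described here are those that differed from the control line in the same direction in both lines of K562 cells that express BASP1. They numbered 755 of 14754 genes measured in both comparisons, out of 28395 genes in each deposited table, and 645 of them were lower and 110 higher in both BASP1 lines. A gene was included when the mean of log2(value + 1) in the BASP1 libraries differed from that of the control libraries by at least 1 in the same direction in both tables, and when no BASP1 library overlapped the range of the control libraries in its table. Genes counted as measured when 3 or more columns of each table held a value of 10 or more. The genes were thus chosen by these RNA-seq differences, which are given as descriptions and carry no test.

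K562 is a human chronic myelogenous leukemia line with erythroid features. V-K562 cells are the control line and carry the empty vector, B-K562 cells express wild-type BASP1 (wtBASP1), and G-K562 cells express BASP1-G2A, a form that cannot take the N-terminal myristoyl group. All of the lines were stably transfected and selected with G-418, and each is 1 pool of cells, from which 3 cultures were taken for RNA-seq and 3 for ATAC-seq. The same 3 V-K562 libraries serve both comparisons, so a difference particular to the V-K562 pool enters both of them and cannot be told apart from a change that BASP1 brings about. Tests between lines measure the spread between cultures of 1 pool.

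BASP1 is a small protein known from the plasma membrane of neurons that also acts in the nucleus, where it serves as a corepressor of the zinc finger transcription factor WT1. The lipid group at its N-terminus allows it to bind phosphoinositides and to recruit histone deacetylases to promoters. K562 cells are a common model for this partnership because they express WT1 and very little BASP1.

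The values below are normalized read counts, rounded to whole numbers, and those of V-K562 cells come from the table that holds B-K562 cells. The same V-K562 libraries were on average 1.017 times higher in the table that holds G-K562 cells. Summed over genes, the libraries held 32074895 to 33229588 normalized reads. BASP1 was at 7, 5 and 7 in the V-K562 libraries, at 6849, 6618 and 6189 in B-K562 and at 9323, 12538 and 8124 in G-K562, so the groups follow their labels. It is the member with the largest difference (9.82 in B-K562 and 10.40 in G-K562 on the log2 scale) and is the expressed transgene itself. WT1 was at 1267, 1172 and 1130 in V-K562 cells, 1348, 1369 and 1383 in B-K562 cells and 3218, 2906 and 3297 in G-K562 cells. The erythroid regulator GATA1 was high in every library (8083, 8070 and 8033 in V-K562 cells), and the B-cell marker MS4A1 was listed at 0 in all of them. A keratin gene, KRT5, was at 143 in V-K562 replicate 1 and at 0 in the other V-K562 libraries, and the fibroblast genes DCN and LUM stood at 64 and 61 in B-K562 replicate 1 and at no more than 20 and 4 in any other library. Without V-K562 replicate 1 the rule gave 671 lower and 125 higher genes, and without B-K562 replicate 1 it gave 643 and 109.

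Most of the shared genes were lower, and most were of modest abundance. Applied to a single table, the same rule took 14.2% of the tested genes as lower and 5.82% as higher in B-K562 cells, and 10.6% as lower and 6.87% as higher in G-K562 cells. The shared lower genes were 4.37% and the shared higher genes 0.746% of all genes tested. Per kilobase of transcript, the median V-K562 value was 28.8 for the lower genes and 12.2 for the higher genes, against 194.3 for all tested genes. The median difference of the lower genes was -1.98 in B-K562 and -2.01 in G-K562 cells on the log2 scale, and that of the higher genes was 1.48 and 1.49. Across all tested genes the medians were -9.719e-05 and -0.016. Of the lower genes, 195 differed by at least 2 on the log2 scale in both lines, and of the higher genes 18 did. Long noncoding RNAs made up 11.5% of the lower and 14.5% of the higher genes, against 7.10% of all genes tested.

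Some members rest on low values. Of the 645 lower genes, 137 were under 10 in every BASP1 library of both tables and 242 in every BASP1 library of at least 1 table, so these passed the filter only through the V-K562 libraries. Of the 110 higher genes, 25 were under 10 in every V-K562 library. At the edge of the rule, TCP11L2 (-2.13 in B-K562, -1.0 in G-K562) and PTX3 (-1.002 and -2.44) lay just inside it, and KLK1 (-1.50 and -0.999) and SYTL5 (-0.998 and -2.08) just outside. For the higher genes, GPR75 (1.05 and 1.0) and ITGAM (1.01 and 2.67) lay just inside, and ADM5 (1.09 and 0.998) and MAML3 (0.997 and 3.62) just outside.

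**Figure D1:**
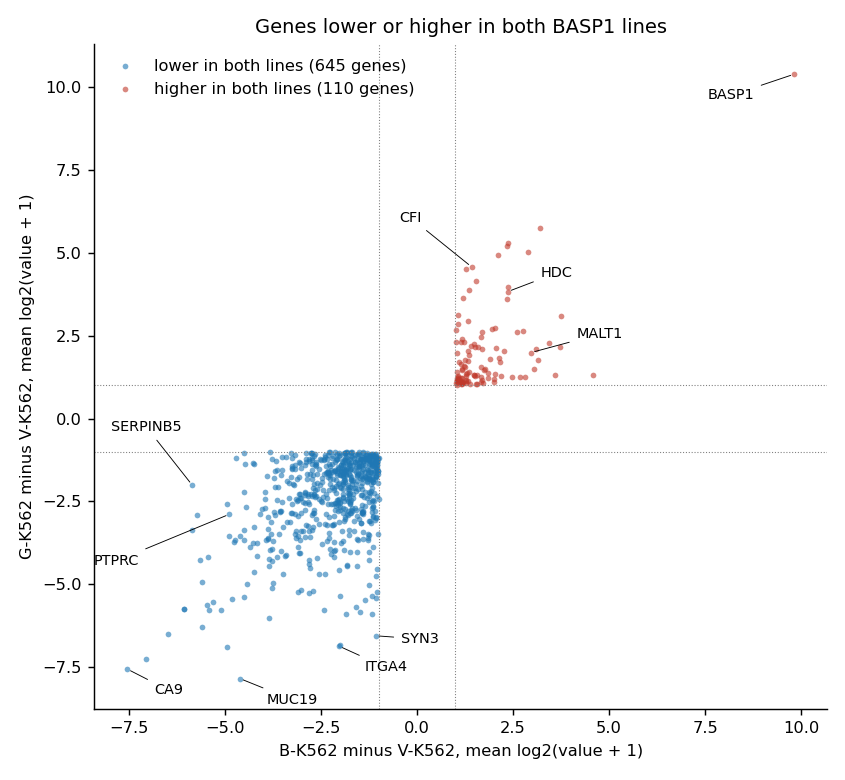
Difference of each shared gene from V-K562 cells, as mean log2(value + 1), for B-K562 (x axis) and G-K562 cells (y axis). Blue points are the 645 lower and red points the 110 higher genes, dotted lines mark a difference of 1, and the points spread widely within each quadrant, from CA9 at -7.54 and -7.57 to SYN3, which lay at -1.08 in B-K562 and at -6.56 in G-K562 cells.

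Several of the shared lower genes were near silence in both BASP1 lines. CA9 (chromosome 9, 35673918 to 35681159), the hypoxia-induced membrane carbonic anhydrase IX, was at 465, 426 and 390 in the V-K562 libraries, 3, 2 and 0 in B-K562 and 2, 1 and 1 in G-K562. MARCHF1, a membrane-bound ubiquitin ligase that lowers surface MHC class II, was at 219, 217 and 294, against 1, 2 and 0 and 0, 3 and 0. ZNF506, a zinc finger gene, was at 148, 151 and 159, against 3, 3 and 1 and 1, 0 and 3. No BASP1 library held more than 3 normalized reads of these genes, far from any V-K562 library. ALX1, a homeodomain factor of facial development, was at 76, 51 and 75 in V-K562 cells and at 0 or 1 in all BASP1 libraries. CD1D, which presents lipids to T cells, was at 55, 60 and 47 in V-K562 cells and likewise at 0 or 1. The sialyltransferase gene ST8SIA4 (53, 56 and 49 in V-K562 cells), the synaptic vesicle gene SYT1 (88, 81 and 93) and the amino acid transporter gene SLC6A15 (66, 65 and 66) did not exceed 3 in any BASP1 library.

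At higher abundance, SCIN, which encodes the actin-severing protein scinderin, was at 4926, 5247 and 5692 in V-K562 cells, 385, 350 and 351 in B-K562 cells and 225, 286 and 222 in G-K562 cells. PGR, the progesterone receptor gene, was at 312, 355 and 346, against 12, 10 and 11 and 4, 10 and 8. MUC19, a gel-forming mucin gene, was at 901, 1016 and 963, against 27, 39 and 53 and 4, 4 and 2, and had the lowest difference of any member in G-K562 cells (-7.85). In each of these genes the V-K562 libraries lay far above every BASP1 library, and for PGR the BASP1 lines overlapped each other. SCIN and MUC19 were chosen after their values were seen.

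The list with the largest share of lower genes among the 39 gene lists examined was that of glycolysis and the hypoxia response. Of its 38 tested genes, 9 (23.7%) were lower in both lines and none was higher, and the list medians were -0.83 in B-K562 and -0.94 in G-K562 cells. Cells short of oxygen stabilize HIF transcription factors, which bind hypoxia response elements with the core letters ACGTG and raise glycolytic enzymes, carbonic anhydrases and regulators of mitochondrial fuel use. Promoter sequences from RefSeq (GRCh38.p14) are shown for 3 of the lower genes of this list, upstream of the RefSeq transcription start. ACGTG on either strand is in capitals. Exonic bases were left out for ALDOC and ANKRD37. For CA9 only the 30 bases before the RefSeq start are shown, since the matched site lies in an exon of a neighbouring gene. The RefSeq start of CA9 lies downstream of the gene start given above. The sequences are those of CA9 (chr9:35673898-35673927, plus strand), ALDOC (chr17:28576949-28577145, minus strand) and ANKRD37 (chr4:185396591-185396810, plus strand).
CA9: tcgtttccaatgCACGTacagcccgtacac
ALDOC: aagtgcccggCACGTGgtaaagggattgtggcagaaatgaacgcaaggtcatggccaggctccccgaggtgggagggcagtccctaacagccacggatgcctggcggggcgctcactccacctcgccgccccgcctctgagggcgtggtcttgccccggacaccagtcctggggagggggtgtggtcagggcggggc
ANKRD37: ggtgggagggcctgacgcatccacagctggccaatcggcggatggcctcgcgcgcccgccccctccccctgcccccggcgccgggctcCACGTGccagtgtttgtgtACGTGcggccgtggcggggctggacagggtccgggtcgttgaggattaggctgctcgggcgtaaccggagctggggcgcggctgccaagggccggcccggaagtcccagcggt
The match on the minus strand of CA9 begins 18 bases before the RefSeq start, while ALDOC and ANKRD37 hold the palindrome CACGTG, which matches on both strands. This motif was chosen after the values were seen. It occurred in the 300-base promoter windows (250 bases before to 50 after the start) of 6 of the 8 listed lower genes with a RefSeq entry, and in 26.2% of the windows of all tested genes, so the letters alone are common.

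NDRG1, a stress-induced gene of the hypoxia response, was at 3325, 3580 and 3568 in V-K562 cells, 193, 178 and 183 in B-K562 cells and 342, 387 and 378 in G-K562 cells. P4HA1, a collagen prolyl hydroxylase gene, was at 9192, 10329 and 9697, against 1187, 1197 and 1215 and 1843, 1996 and 1753. ALDOC, the aldolase gene shown above, was at 14818, 15336 and 15129, against 2536, 2371 and 2434 and 1935, 1966 and 1779. In these genes every BASP1 library lay far below the lowest V-K562 library, and the BASP1 lines did not overlap each other. ENO2, an enolase gene, was at 3244, 3541 and 3545, against 987, 971 and 1025 and 473, 507 and 416. PDK1, which encodes a kinase that shuts off pyruvate dehydrogenase, was at 2699, 2970 and 2461, against 971, 965 and 994 and 690, 633 and 672. PFKFB4, a regulator of the glycolytic signal fructose 2,6-bisphosphate, was at 2653, 3008 and 2500, against 1170, 1097 and 1177 and 246, 240 and 228, with the G-K562 libraries well below those of B-K562.

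ANKRD37, an ankyrin repeat gene whose promoter is shown above, was at 238, 263 and 241 in V-K562 cells, 69, 84 and 75 in B-K562 cells and 42, 36 and 30 in G-K562 cells. The lower genes also included the main aldolase gene ALDOA (107622, 122320 and 122626 in V-K562 cells, against 48179, 48762 and 47556 and 40266, 39208 and 37818). MIR210HG, the host transcript of the hypoxia-induced miR-210, was at 419, 383 and 367, against 81, 91 and 85 and 91, 91 and 94. SLC6A8, the creatine transporter gene, was at 19059, 21455 and 19934, against 7558, 7633 and 7709 and 2967, 3066 and 2840. MIR210HG and SLC6A8 are outside the list and were chosen after their values were seen. Not every gene of this response was a member. VEGFA, which encodes the main angiogenic growth factor, was at 16137, 16215 and 17513 in V-K562 cells and 3373, 3431 and 3492 in B-K562 cells, but at 11435, 11885 and 11977 in G-K562 cells, a difference of -0.52 that misses the rule. The transcript of HIF1A, the oxygen-regulated subunit, was at 1730, 1751 and 1725 in V-K562 cells, 1859, 1868 and 1965 in B-K562 cells and 1310, 1302 and 1256 in G-K562 cells.

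All 7 tested metallothionein genes were lower in both lines. Metallothioneins are small cysteine-rich proteins that bind zinc and copper, and their promoters carry metal response elements (TGCACNC or TGCGCNC) for the zinc sensor MTF1. These genes were grouped after their values were seen. They form a single run of neighbours on chromosome 16, from 56565049 to 56684196. The sequences of 3 of their promoters from RefSeq (GRCh38.p14, plus strand) follow, with these letters in capitals on either strand, for MT2A (chr16:56608334-56608583), MT1X (chr16:56682220-56682469) and MT1H (chr16:56669564-56669813).
MT2A: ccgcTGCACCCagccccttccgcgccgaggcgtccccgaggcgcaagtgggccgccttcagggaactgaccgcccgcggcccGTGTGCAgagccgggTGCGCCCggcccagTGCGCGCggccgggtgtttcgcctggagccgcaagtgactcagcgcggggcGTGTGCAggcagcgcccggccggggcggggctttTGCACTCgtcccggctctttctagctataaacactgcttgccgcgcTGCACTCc
MT1X: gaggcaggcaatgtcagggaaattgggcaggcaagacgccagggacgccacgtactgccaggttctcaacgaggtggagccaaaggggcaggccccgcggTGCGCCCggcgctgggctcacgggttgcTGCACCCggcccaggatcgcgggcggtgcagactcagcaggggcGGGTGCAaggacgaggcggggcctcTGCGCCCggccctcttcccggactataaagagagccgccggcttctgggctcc
MT1H: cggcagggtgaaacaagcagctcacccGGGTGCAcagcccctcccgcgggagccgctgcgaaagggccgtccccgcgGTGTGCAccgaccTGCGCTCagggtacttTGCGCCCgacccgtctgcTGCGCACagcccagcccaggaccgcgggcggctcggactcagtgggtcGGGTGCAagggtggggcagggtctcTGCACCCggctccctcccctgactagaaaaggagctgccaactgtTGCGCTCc
The 250 bases hold 7 matches in MT2A, 4 in MT1X and 8 in MT1H. All 4 metallothionein members with a RefSeq promoter entry had a match in the 300-base window, as had 38.2% of all tested genes.

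MT2A was at 4744, 5747 and 6657 in the V-K562 libraries, 558, 589 and 456 in B-K562 and 330, 351 and 313 in G-K562. MT1X was at 1592, 1979 and 2427, against 193, 135 and 121 and 157, 174 and 135. MT1G was at 211, 293 and 371, against 17, 21 and 18 and 10, 21 and 14. In each of these genes the V-K562 libraries spread more, in normalized counts, than those of the BASP1 lines and still lay far above them. On the log2 scale the larger spread did not hold for every one of these genes. MT1E was at 235, 260 and 316, against 13, 7 and 8 and 17, 28 and 18. MT4 was at 142, 140 and 85, against 10, 6 and 4 and 13, 22 and 19. MT1H and MT1F did not exceed 64 in V-K562 cells and 7 in the BASP1 lines. These genes are close copies of each other, so reads may be shared or lost between them and the values of single members are uncertain.

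**Figure D2:**
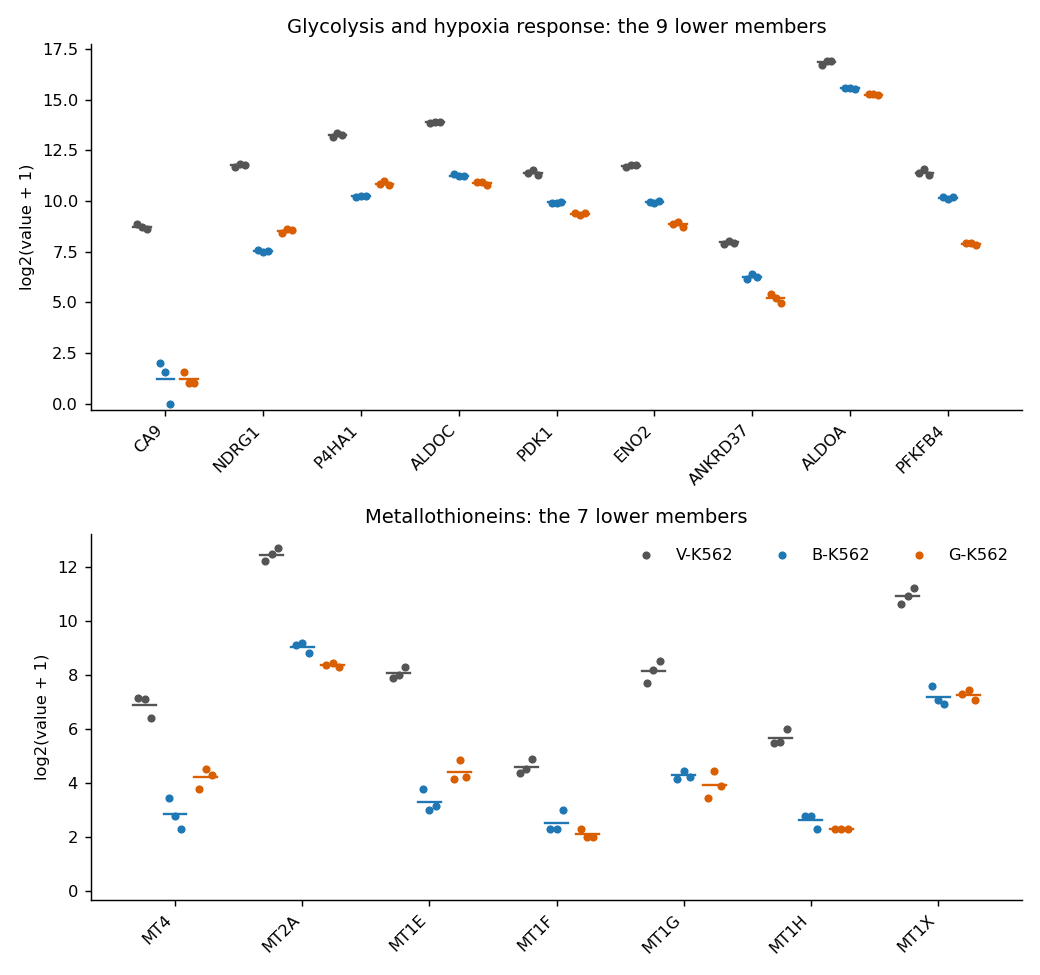
Values of the 9 lower genes of the glycolysis and hypoxia list (top) and of the 7 metallothionein genes (bottom) in each culture, as log2(value + 1) on the y axis, with the V-K562 values taken from the table with B-K562 cells. Points are single cultures and horizontal bars are group means, and for every gene the V-K562 cultures (grey) lie above all B-K562 (blue) and G-K562 (orange) cultures.

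Genes of cholesterol metabolism were lower in 5 of 37 tested cases (13.5%). MSMO1, a sterol methyl oxidase gene, was at 2556, 2883 and 3268 in V-K562 cells, 893, 729 and 849 in B-K562 cells and 554, 597 and 486 in G-K562 cells. FDFT1, which encodes squalene synthase, was at 18567, 19352 and 20868, against 8436, 7871 and 8023 and 8436, 9467 and 8093, with the BASP1 lines overlapping each other. STARD4, a sterol carrier gene, was at 4212, 3912 and 3746, against 1372, 1207 and 1427 and 1634, 1943 and 1517. INSIG2, whose product retains the SCAP-SREBP complex in the endoplasmic reticulum, was at 645, 643 and 549, against 266, 232 and 275 and 305, 274 and 279. All V-K562 libraries of these genes lay above every BASP1 library.

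Lists of surface, adhesion and signaling genes were counted in the same way, beside the 4.37% of all tested genes that were lower. Of 38 axon guidance genes 6 (15.8%) were lower, of 47 WNT and Notch genes 7 (14.9%), of 26 cadherins and protocadherins 4 (15.4%, with 2 higher), of 48 TGF-beta and BMP genes 5 (10.4%) and of 36 collagens and laminins 4 (11.1%, with 1 higher). The medians of whole lists differed in sign between B-K562 and G-K562 cells for axon guidance (-0.93 and 0.05) and WNT and Notch genes (-0.12 and 0.08). The same held for TGF-beta and BMP genes (-0.42 and 0.18), so the shared members do not stand for these lists. Medians were -0.49 and -0.27 for cadherins and protocadherins, and -1.03 and -0.04 for collagens and laminins. The ephrin receptor gene EPHB6 was at 3001, 3182 and 3194 in V-K562 cells, 1262, 1298 and 1268 in B-K562 cells and 942, 927 and 803 in G-K562 cells. LGR6, a receptor for WNT-potentiating R-spondins, was at 150, 137 and 133, against 17, 26 and 28 and 3, 6 and 5. TGFBR2, the type II TGF-beta receptor gene, was at 383, 422 and 432, against 93, 72 and 66 and 5, 14 and 4. In TGFBR2 and LGR6 the lines formed 3 separate levels, with G-K562 the lowest. PCDH10, a protocadherin gene, was at 272, 280 and 324, against 20 in each B-K562 library and 20, 32 and 26 in G-K562. EPHA2, another ephrin receptor gene, was at 49, 19 and 20 in V-K562 cells, so its mean rests in part on V-K562 replicate 1, and its BASP1 values were 8 or less. Among integrins, ITGA2B, the platelet integrin alpha chain gene, was at 4217, 4273 and 4536, against 1583, 1828 and 1855 and 1057, 832 and 682.

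Genes of immune cells formed a further share of the lower genes. Of 14 MHC and antigen presentation genes 3 were lower, of 35 interferon response genes 3, and of 104 genes for cytokines, their receptors and JAK-STAT signaling 12, with 1 further gene higher. The list medians of the interferon genes (-0.61 in B-K562, 0.12 in G-K562) and of the antigen presentation genes (-1.12 and 0.68) differed in sign between the lines, so the shared members do not stand for their lists. CD74, the invariant chain of MHC class II, was at 67, 78 and 66 in V-K562 cells, 12, 13 and 13 in B-K562 cells and 9, 15 and 5 in G-K562 cells. ISG20, an interferon-induced exonuclease gene, was at 135, 111 and 130, against 34, 31 and 19 and 32, 31 and 21.

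Genes known from lymphocytes were among the lower genes as well, and those named were chosen after their values were seen. PTPRC, which encodes the leukocyte phosphatase CD45, was at 2491, 2497 and 2429 in V-K562 cells, 83, 80 and 85 in B-K562 cells and 353, 357 and 307 in G-K562 cells. CD3D, a chain of the T-cell receptor complex, was at 561, 470 and 400, against 171, 173 and 172 and 162, 160 and 228. The V-K562 libraries of both genes lay well above every BASP1 library. CD3G, another chain of that complex, was also lower, at 20, 19 and 20 in V-K562 cells against 2, 8 and 7 and 2, 1 and 0. The B-cell receptor gene CD79B was lower from 23, 15 and 13, and the T-cell gene CD7 from 13, 12 and 16. CD3E, in contrast, was at 14, 12 and 16 in V-K562 cells, 26, 21 and 18 in B-K562 cells and 20, 29 and 27 in G-K562 cells and met the rule in neither direction. CD8A and CD79A did not exceed 3 in V-K562 cells, too low for a decrease to be seen.

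Among regulators, 3 of 31 hematopoietic transcription factor genes were lower and none was higher. RUNX3 was at 65, 48 and 48 in V-K562 cells, 4, 0 and 2 in B-K562 cells and 7, 7 and 9 in G-K562 cells. IKZF3, which encodes the lymphoid factor Aiolos, was at 175, 155 and 181, against 50, 47 and 57 and 34, 29 and 29. ETS1 was at 782, 831 and 1010, against 119, 111 and 114 and 184, 129 and 237. ETS1 was also the only 1 of 33 tested genes on a list of WT1 targets that met the rule. That share (3.03%) is near the 4.37% of all tested genes that were lower, and nothing particular to WT1 targets is read from it. AREG, the WT1 target that encodes amphiregulin, was at 322, 310 and 339 in V-K562 cells and 53, 56 and 53 in B-K562 cells but at 457, 479 and 468 in G-K562 cells.

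In the remaining lists, the counts of lower and higher genes were 6 and 0 of 47 matrix proteases and inhibitors, 2 and 1 of 22 other matrix genes, 2 and 1 of 20 integrins, 2 and 1 of 16 megakaryocyte and platelet genes, and 1 and 1 of 13 granulocyte and monocyte genes. They were 9 and 2 of 101 ion channels, 15 and 1 of 252 solute carriers, 3 and 0 of 33 nuclear receptors, 3 and 0 of 65 phosphoinositide enzymes, 2 and 0 of 32 early response genes and 8 and 0 of 107 small GTPase regulators. They were 7 and 0 of 122 cytoskeletal genes, 1 and 0 of 60 forkhead, GATA, TBX and bHLH factors, 2 and 1 of 104 pre-ribosome genes, 2 and 2 of 47 cancer-testis genes and 44 and 5 of 585 long noncoding and antisense genes. ZNF genes, most of which encode KRAB repressors, contributed 10 and 2 of 522, a lower share (1.92%) than that of all tested genes.

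No gene was lower or higher in both lines among 17 globin and heme synthesis genes, 24 red cell membrane and receptor genes, 42 histone genes, 31 cyclins, CDK inhibitors and replication genes, 25 ATF4 stress genes, 13 BCL2 family genes and 7 tested genes of the EGF family and its receptors. Over all tested genes the shares were 4.37% lower and 0.746% higher. Lists of these sizes can hold none at such shares, and nothing is read from the zeros. The globin list had medians of 0.65 in B-K562 and -1.15 in G-K562 cells. Homeobox, POU, PAX and SOX genes gave 2 higher genes (POU3F2 and HOXC13) and no lower gene of 64, Polycomb and histone deacetylase genes 1 higher of 33, and lipid-anchored membrane proteins like BASP1 only BASP1 itself, of 8. In all, 196 of the 755 genes belonged to at least 1 list and 559 to none. A group noticed after the values were seen was that of small RNAs without a poly(A) tail, of which 7 of 158 tested were lower and none higher, a share near the 4.37% of all tested genes. SCARNA9 was at 145, 151 and 213 in V-K562 cells, 53, 64 and 56 in B-K562 cells and 63, 82 and 48 in G-K562 cells. Each V-K562 library lay above every BASP1 library.

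**Figure D3:**
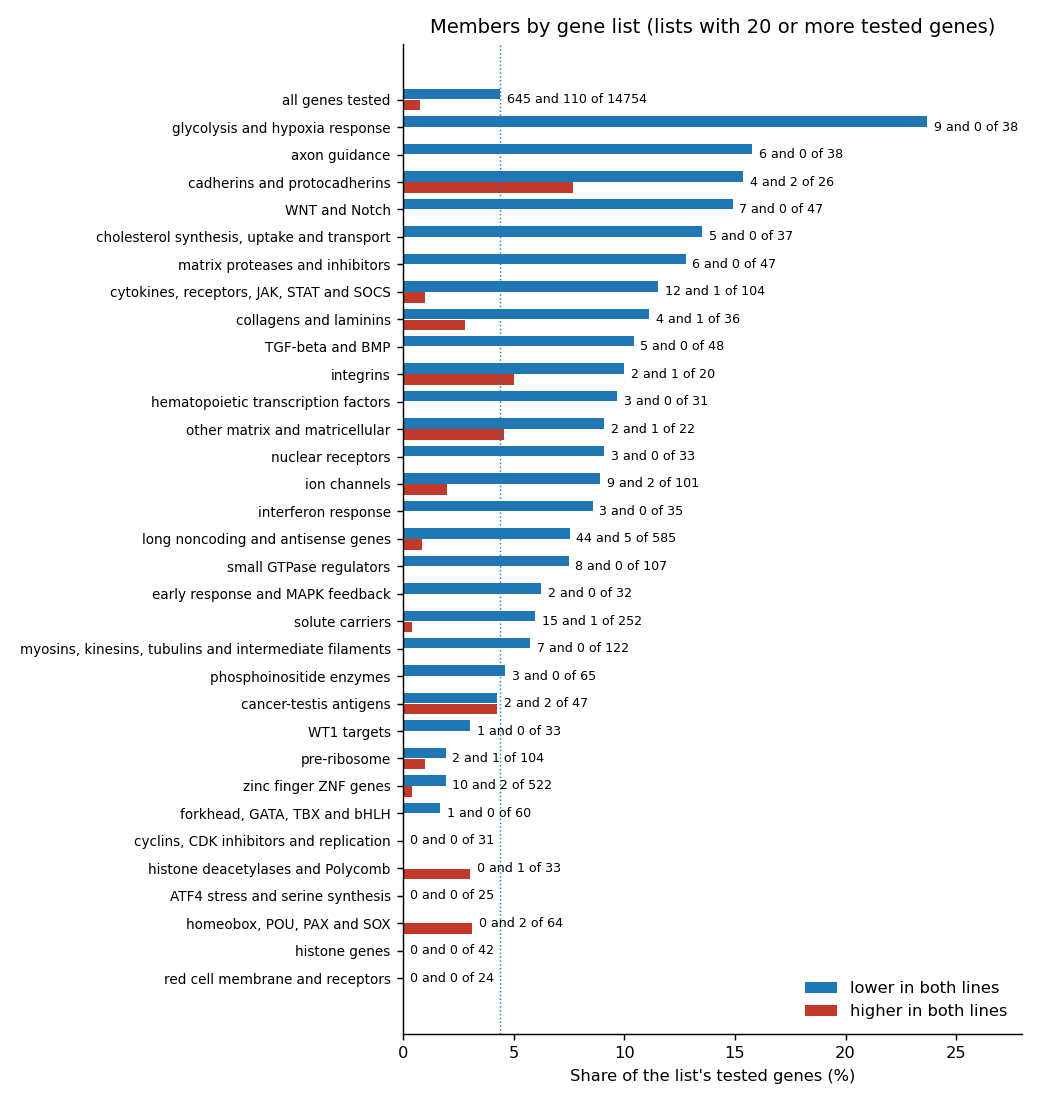
Share of the tested genes of each list with at least 20 tested genes that was lower (blue) or higher (red) in both BASP1 lines, in percent on the x axis, with the counts beside the bars and a dotted line at the lower share of all tested genes (4.37%). The glycolysis and hypoxia list has the largest lower share at 23.7%, and the red cell, histone and ATF4 lists have no bars.

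The 110 higher genes were fewer and, in V-K562 cells, mostly low. HDC, the histidine decarboxylase gene that makes histamine in mast cells and basophils, was at 76, 74 and 60 in V-K562 cells, 361, 362 and 365 in B-K562 cells and 1001, 849 and 1254 in G-K562 cells. MALT1, a protease gene of immune signaling, was at 217, 213 and 218, against 1687, 1654 and 1763 and 905, 888 and 842. COL14A1, a collagen gene, was at 341, 463 and 435, against 1692, 1645 and 1726 and 3024, 2546 and 2756. These genes separated all 3 lines, with MALT1 highest in B-K562 cells and the others highest in G-K562 cells. POU3F2, a neuronal POU-domain factor gene, was at 14, 8 and 13, against 122, 140 and 137 and 58, 70 and 59. MAGEA11, a cancer-testis gene that binds the androgen receptor, was at 19, 17 and 27, against 85, 98 and 83 and 87, 113 and 87, with the BASP1 lines overlapping. CBX2, a chromobox subunit of Polycomb repressive complexes, was at 809, 788 and 821, against 1942, 1929 and 1898 and 2362, 2373 and 2466.

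A few higher genes that encode surface proteins of blood cells were chosen after their values were seen. The list of megakaryocyte and platelet genes held 1 higher and 2 lower genes of 16. That of granulocyte and monocyte genes held 1 higher and 1 lower of 13. The platelet integrin gene ITGA2B, given above, was among the lower genes. SELPLG, the P-selectin ligand gene, was at 150, 146 and 120 in V-K562 cells, 437, 442 and 435 in B-K562 cells and 856, 656 and 826 in G-K562 cells. GP6, the platelet collagen receptor gene, was at 232, 241 and 182, against 503, 555 and 568 and 980, 905 and 823. ITGAM, the myeloid integrin alpha chain gene, was at 38, 44 and 55, against 93, 96 and 87 and 297, 301 and 298. Each lay above the V-K562 range in B-K562 cells and higher again in G-K562 cells. FCER1G, a signaling chain of Fc receptors, was at 2, 9 and 3, against 26, 25 and 21 and 50, 48 and 88. KISS1R, the kisspeptin receptor gene, was at 114, 81 and 75, against 402, 424 and 375 and 356, 291 and 247, whereas its ligand gene KISS1 was among the lower genes, at 23, 18 and 15, against 7, 9 and 3 and 8, 12 and 3.

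Shared lower genes often lay beside each other in the genome. Of the 645, 165 (25.6%) were adjacent, in the order of tested genes, to another lower gene, while 8.43% of all tested genes were adjacent to a lower gene. Without neighbours that overlap on the chromosome the number was 148 (22.9%). Of the higher genes, 8 (7.27%) were adjacent to another, against 1.46% of all tested genes. Without overlapping neighbours the number was 4 (3.64%), and these include the transgene BASP1 itself, beside CDH18. Besides the metallothioneins, a run of 4 lower genes, SLC6A15, ALX1, RASSF9 and NTS, lay on chromosome 12, from 84859488 to 85882992. The neuropeptide gene NTS was at 225, 209 and 135 in V-K562 cells, 15, 10 and 11 in B-K562 cells and 3, 2 and 1 in G-K562 cells. NTS was chosen from this run after its values were seen. The lower genes were spread over the chromosomes, from 2.43% of the tested genes on chromosome 14 to 7.14% on chromosome 18.

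G-K562 and B-K562 cells were compared directly at the shared genes with limma, a linear model fitted across all 15521 tested genes, with a call at a Benjamini-Hochberg adjusted p of at most 0.05 and a difference of at least 1 on the log2 scale. Of the 645 lower genes, 92 (14.3%) were higher in G-K562 cells and 114 (17.7%) were lower, where 17.4% and 12.5% of all tested genes were higher and lower. Of the 110 higher genes, 21 (19.1%) were higher and 10 (9.09%) lower in G-K562 cells. These shares are of the size of those over all genes, and nothing particular to the shared genes is read from them. The median difference was -0.02 for the lower and 0.06 for the higher genes. For 237 of the 645 lower and 66 of the 110 higher genes the difference lay within 1 on the log2 scale by more than 2 standard errors. Over all 15521 tested genes this held for 9096, and agreement particular to the shared genes is not read from these counts.

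CA9 was too low in both lines for a difference to be seen. FDFT1 differed by 0.07 (standard error 0.06, adjusted p = 0.326) and CD3D by 0.05 (standard error 0.14, adjusted p = 0.767). The decrease was smaller in G-K562 cells for PTPRC, by 2.0 (adjusted p = 1.488e-11), and for NDRG1, by 0.97 (adjusted p = 1.023e-08), which misses the criterion of size. It was larger in G-K562 cells for MT2A, where the difference was -0.71 (adjusted p = 5.125e-05), and for PFKFB4, at -2.29 (adjusted p = 1.778e-12). BASP1 itself was higher in G-K562 cells by 0.56 (standard error 0.14, adjusted p = 0.00186), so the 2 proteins were not compared at matched transcript levels.

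**Figure D4:**
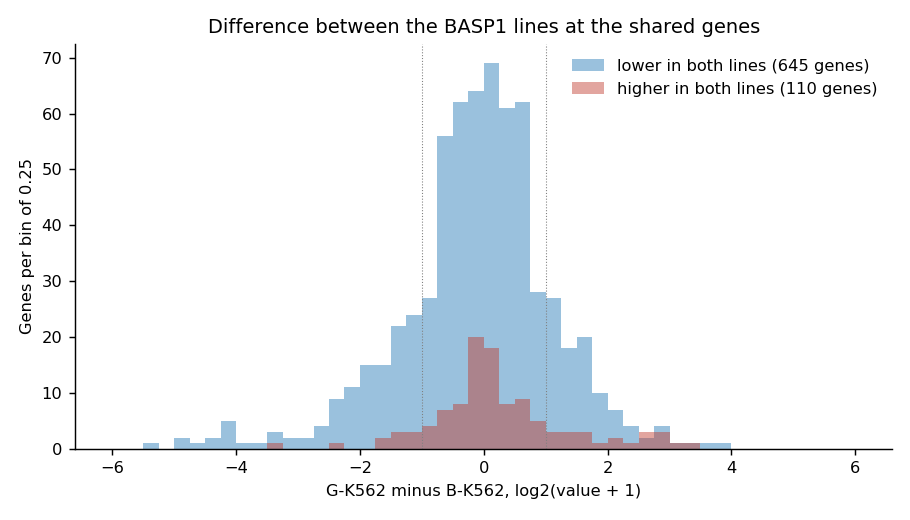
Difference between G-K562 and B-K562 cells at the shared genes, in log2(value + 1) on the x axis in bins of 0.25, with the number of genes on the y axis. Blue bars are the 645 lower and red bars the 110 higher genes, dotted lines mark a difference of 1, and both distributions centre near 0 (medians -0.02 and 0.06) with a longer tail on the left for the lower genes.

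Open chromatin was measured in the same lines by ATAC-seq, which the choice of genes did not use. Each region was assigned to its closest gene within 5000 bp, its height was the highest summit pileup (overlapping tags) of the peak in each library, and a library with no peak or a lower pileup was set to a floor of 17. Peaks per library numbered 47111 to 55570, and mean pileup was 40.3 to 40.9 in V-K562 and 47.4 to 52.3 in the BASP1 libraries before scaling. A region was called closed or opened when limma gave an adjusted p of at most 0.05 and a difference of at least 1 on the log2 scale. In B-K562 cells 135 of the 1223 regions at lower genes were closed (11.0%) and 8 opened (0.654%), against 5.72% closed and 1.71% opened of the 30671 regions at all tested genes. In G-K562 cells 250 of 1246 were closed (20.1%) and 17 opened (1.36%), against 12.0% and 3.36% of 31512. The share of closed regions lay above the background and that of opened regions below it in each comparison, which is a description over regions with no test of its own. Both comparisons again share the V-K562 libraries.

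At transcription starts (summit within 500 bp), 20 of 230 regions at lower genes were closed in B-K562 cells (8.70%), against 0.904% at all tested genes, and 29 of 232 in G-K562 cells (12.5%), against 1.54%. Away from starts the shares were 11.6% against 7.68% in B-K562 cells and 21.8% against 16.2% in G-K562 cells. A closed region was found at 109 of the 496 lower genes with a region in the B-K562 comparison, against 1396 of 12494 tested genes, and at 165 of 502 in the G-K562 comparison, against 2547 of 12579. Most lower genes with a region thus had no closed region. At higher genes, 7 regions were closed and 11 opened of 185 in B-K562 cells (3.78% and 5.95%), and 16 and 15 of 195 in G-K562 cells (8.21% and 7.69%). At their starts no region was closed, and 2 of 34 (5.88%) and 8 of 39 (20.5%) were opened, against 0.836% and 3.17% at the starts of all tested genes. Between the BASP1 lines, 130 of 1385 regions at lower genes were closed (9.39%) and 44 opened (3.18%) in G-K562 cells relative to B-K562, against 8.60% and 4.51% of 34416 regions at all tested genes.

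**Figure D5:**
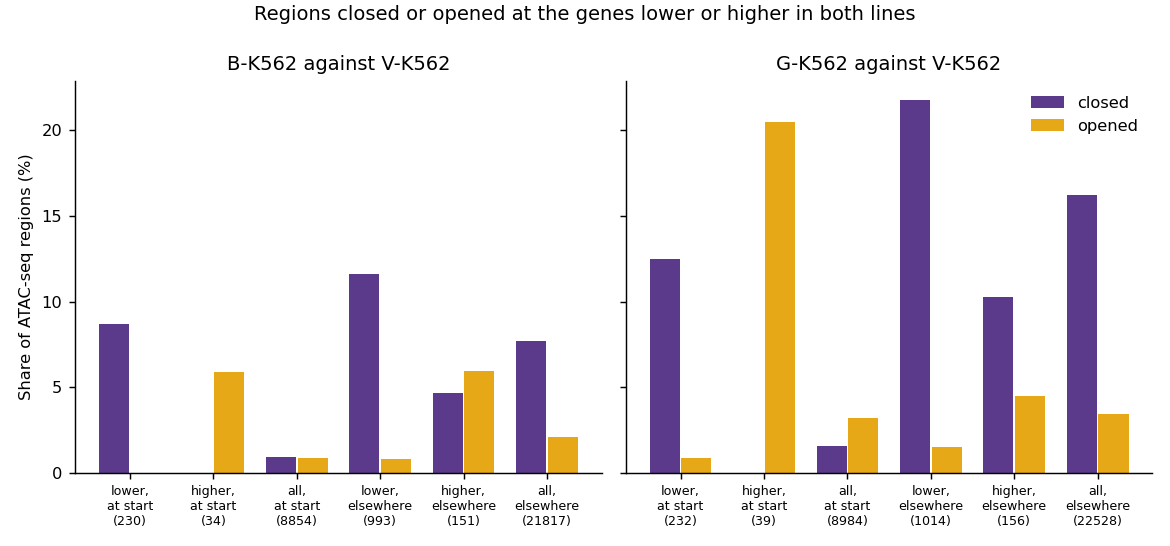
Share of ATAC-seq regions called closed (purple) or opened (yellow), in percent on the y axis, compared to V-K562 cells, at the starts of the lower, the higher and all tested genes and elsewhere, with the number of regions under each pair of bars and B-K562 on the left, G-K562 on the right. At starts of lower genes 8.70% and 12.5% of regions were closed, against 0.904% and 1.54% at the starts of all tested genes.

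Single regions showed the loss of a peak beside a lower gene. At ARHGAP42, a GTPase-activating protein gene, a peak at chr11:100863187-100863591 had pileups of 109, 97 and 97 in V-K562 cells and was not called in any BASP1 library. Its difference was -2.65 in B-K562 (adjusted p = 8.667e-04) and -2.74 in G-K562 cells (adjusted p = 1.615e-04), both set by the floor in the BASP1 lines. At KYNU, the kynureninase gene of tryptophan breakdown, a region across the start (chr2:142748700-142749130, summit 64 bases before it) was at 65, 80 and 74 in V-K562 cells, at 12 and 18 in 2 libraries of B-K562 and at 26 and 18 in 2 of G-K562, with no peak in the remaining library of each. The KYNU transcript was at 1147, 1192 and 1019 in V-K562 cells, 173, 162 and 147 in B-K562 cells and 49, 52 and 44 in G-K562 cells. Peak and transcript were both highest in V-K562 cells, without overlap.

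The start of TGFBR2 lies in a region (chr3:30606297-30606794) with pileups of 78, 63 and 57 in V-K562 cells and 28, 30 and 16 in B-K562 cells, and with no peak in G-K562 cells, differences of -1.57 (adjusted p = 0.00548) and -2.12 (adjusted p = 3.264e-04, at the floor). GDF2, which encodes BMP9, had a region at its start (chr10:47322338-47322691) at 36, 63 and 41 in V-K562 cells and no peak in either BASP1 line. The differences at GDF2 were -1.49 (adjusted p = 0.00479) and -1.59 (adjusted p = 0.00153), again against the floor. The GDF2 transcript was at 81, 95 and 99 in V-K562 cells, 20, 20 and 27 in B-K562 cells and 2, 1 and 1 in G-K562 cells. DNAJC12, a co-chaperone gene, kept a lower peak at its start (chr10:67837984-67838352), at 54, 45 and 44 in V-K562 cells, 25, 21 and 21 in B-K562 cells and 31, 22 and 31 in G-K562 cells. Upstream sequences of the starts of GDF2 (chr10:47322204-47322453, plus strand) and DNAJC12 (chr10:67838189-67838438, minus strand), from RefSeq (GRCh38.p14), are shown because a closed region covers part of each, with TATAAA and CACGTG on either strand in capitals.
GDF2: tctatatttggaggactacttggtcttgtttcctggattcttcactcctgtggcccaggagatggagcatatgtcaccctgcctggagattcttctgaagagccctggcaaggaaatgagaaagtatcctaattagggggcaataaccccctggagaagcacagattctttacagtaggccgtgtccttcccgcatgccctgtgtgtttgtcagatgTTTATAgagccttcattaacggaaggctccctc
DNAJC12: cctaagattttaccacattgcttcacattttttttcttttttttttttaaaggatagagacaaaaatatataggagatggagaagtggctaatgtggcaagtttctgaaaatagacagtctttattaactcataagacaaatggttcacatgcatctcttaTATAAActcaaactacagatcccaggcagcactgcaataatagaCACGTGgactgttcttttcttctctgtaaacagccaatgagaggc
The closed region covers 116 of these bases at GDF2 and 164 at DNAJC12. Both windows hold TATAAA, and DNAJC12 also holds CACGTG 45 bases before its start. The window of TGFBR2, which is not shown, is covered by its closed region over 59 bases and holds neither motif.

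At higher genes, a region at the noncoding gene LINC00689 (chr7:159020975-159021396) had no peak in V-K562 cells, pileups of 73, 44 and 63 in B-K562 cells and of 96, 90 and 72 in G-K562 cells. A region at BASP1 (chr5:17275124-17275897) likewise had no V-K562 peak and was at 57, 47 and 46 and at 63, 50 and 63. It spans 774 bases, shares 681 of them with the coding part of the gene (17275217 to 17275897) and ends with it. The transgene carries this coding sequence, and whether the tags came from it was not tested. Both regions are shown for their higher pileup, while the regions closed at higher genes are counted above.

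Promoter windows were matched in RefSeq (GRCh38.p14) for 451 of the 645 lower genes, 83 of the 110 higher genes and 11382 of the 14754 tested genes. They were somewhat poorer in CpG, with a median of 17 CpG dinucleotides at both lower and higher genes and 26 over all tested genes, and a median GC content of 62.7%, 63% and 65%. On either strand, the GATA motif AGATAA was found in 11.8% of the windows of lower genes, 9.64% of those of higher genes and 5.68% of all windows. TATAAA was found in 11.8%, 4.82% and 6.0%, the AP-1 motif TGANTCA in 6.87%, 7.23% and 4.74%, and CACGTG, which overlaps ACGTG, in 6.87%, 12% and 9.88%. The ETS motif CCGGAAG was found in 7.54% and 8.43%, against 18.9% of all windows. The letters bound by WT1 and the related EGR factors, GCGTGGGNG or GCGGGGGNG, occurred in 15.5% of lower, 21.7% of higher and 16.8% of all windows. The interferon motif GAAANNGAA occurred in 5.77%, 4.82% and 6.45%. CpG content and these motifs are not independent of each other, and a match of letters does not show that a factor is bound.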

How the data were processed

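RNA-seq and ATAC-seq were run on 3 cultures per line. The authors aligned RNA reads with STAR, counted genes with Subread on RefSeq (GRCh38) and normalized with DESeq2. The deposited RNA values are these normalized counts rounded to whole numbers, treated as a score rather than as raw counts, so limma (3.58.1, R 4.3.3) was used in place of the planned count test. Differences are on log2(value + 1), which understates changes of low genes. For G-K562 against B-K562 cells, B-K562 values were multiplied by 1.017. Deposited ATAC-seq peaks (MACS2, per library) carry a summit pileup, a signal, from libraries the authors reduced to equal tag numbers. Peaks were merged into 85549 regions, regions with a peak in at least 3 libraries were tested, heights were scaled by a trimmed mean (30% of ratios, 5% of means), and values under 17 were set to 17. Fits were tested on simulated data. Members and gene lists were chosen with earlier results of these data known. Genes were named by the largest smaller difference of the 2 lines (10 per direction with a mean of at least 50 and up to 4 per list), by the largest G-K562 against B-K562 differences, by ATAC-seq change and by nearness to the threshold. Others were chosen after their values were seen, among them SCIN, MUC19 and NTS. Alternatives covered the pseudocount, filter, scaling, threshold, replicate block and each library left out.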

Additional observations from a re-analysis of the deposited data

Results flagged for a closer look

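Some shared genes differed strongly between the BASP1 lines themselves, by limma's test of that difference over all tested genes, with no overlap between the 3 libraries of each line. They are the 5 highest and 5 lowest of the called differences.

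Among the lower genes, 5 were much lower again in G-K562 cells. SYN3, which encodes a synapsin of synaptic vesicles, was at 112, 119 and 117 in V-K562 cells, 62, 55 and 47 in B-K562 cells and 0, 1 and 0 in G-K562 cells, a difference between the BASP1 lines of -5.48 (adjusted p = 3.426e-10). ITGA4, the alpha 4 integrin gene, was at 761, 772 and 638, against 174, 170 and 184 and 6, 6 and 4 (-4.85, adjusted p = 2.138e-12). PRR16 was at 195, 176 and 163, against 44, 38 and 50 and 1, 1 and 0 (-4.84, adjusted p = 9.667e-10). In these genes the B-K562 libraries formed an intermediate level. PARD3B, a cell polarity gene, was at 150, 194 and 210, against 71, 86 and 87 and 2, 1 and 4 (-4.75, adjusted p = 1.359e-09). ARHGAP15, which encodes a Rac GTPase-activating protein, was at 556, 657 and 602, against 204, 216 and 221 and 7, 13 and 10 (-4.35, adjusted p = 1.812e-11).

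In B-K562 cells 3 lower genes were lower again than in G-K562. SERPINB5, the maspin gene, was at 55, 59 and 57 in V-K562 cells, 0 in each B-K562 library and 8, 21 and 15 in G-K562 cells, a difference of 3.88 (adjusted p = 1.663e-07). ACTA2, the smooth muscle actin gene, was at 248, 278 and 228, against 17, 7 and 5 and 106, 110 and 114 (3.52, adjusted p = 5.167e-08). TMEM108 was at 269, 246 and 299, against 13, 9 and 11 and 137, 133 and 129 (3.47, adjusted p = 5.938e-11). Finally, 2 higher genes were higher again in G-K562 cells. CFI, the complement factor I gene, was at 41, 22 and 36 in V-K562 cells, 90, 83 and 88 in B-K562 cells and 612, 914 and 924 in G-K562 cells (3.17, adjusted p = 4.127e-09), and the uncharacterized LOC101927166 was at 14, 21 and 43, against 71, 47 and 59 and 593, 424 and 745 (3.25, adjusted p = 2.101e-07).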

How the results depend on the processing

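The numbers of 645 lower and 110 higher genes became 299 and 68 when every library had to reach the minimum value, 1192 and 488 with a 1.5-fold criterion, and 195 and 18 with a log2 criterion of 2. They were 828 and 161 with no filter on low values, and 566 and 85 with a pseudocount of 5. Leaving out each library in turn gave 623 to 677 and 107 to 125. Between G-K562 and B-K562 cells, the lower genes that were higher or lower in G-K562 numbered 34 and 42 with the stricter filter and 156 and 189 by adjusted p alone, and a pseudocount of 5 gave 56 higher. Among the higher genes these numbers were 10 and 2 and then 38 and 24. Leaving out each library gave 85 to 101, 107 to 125, 20 to 23 and 10 to 10. For regions at lower genes, a floor at the 25th percentile (27) gave 45 closed and 3 opened in B-K562 and 129 and 7 in G-K562 cells. Without scaling, 99 were closed and 13 opened in B-K562 cells, and 176 and 53 in G-K562 cells. The main setting gave 135 and 250 closed. By adjusted p alone the numbers were 313, 55, 452 and 106. At higher genes the floor gave 1 closed and 6 opened in B-K562 and 10 closed in G-K562 cells, no scaling gave 10 closed and 32 opened in G-K562 cells, and adjusted p alone gave 23, 33, 32 and 38. Leaving out each library gave 106 to 125 closed and 5 to 10 opened (5 without B-K562 replicate 2) in B-K562, and 224 to 258 and 18 to 25 in G-K562 cells, at lower genes. At higher genes it gave 6 to 11 (11 without V-K562 replicate 2), 9 to 12, 14 to 18 and 16 to 18. The cause of these shifts was not tested, beyond the fewer or more genes that a stricter or looser criterion admits. Shares over all tested genes and regions are given for the main setting only. The counts under alternatives therefore do not show whether the higher share of closed regions at lower genes holds, for instance with the higher floor. Of 1923 values for 133 named genes under alternatives, 58 fell out of and 28 came into a call and none changed direction.

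The replicate numbers were not treated as pairing the samples. Deviations of libraries with the same number correlated at -0.151 to 0.257 in RNA-seq and 0.007 to 0.121 in ATAC-seq. In ATAC-seq these correlations were weak but all positive, and the library with the same number was mostly the closest match in the other line. With the replicate number as a block, 92 lower genes were higher and 113 lower in G-K562 relative to B-K562 cells, and 134 regions at lower genes were closed in B-K562 cells.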
